A study of Drosophila melanogaster with 2 samples.

Results

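The proteasome subunit genes of Drosophila melanogaster were examined for peaks of the tagged protein CG31224 at their promoters. The members were the 48 protein-coding genes of the Ensembl annotation (BDGP6) whose symbols name a proteasome subunit, out of 13968 protein-coding genes on the 7 chromosomes analysed. They comprise 25 genes of the core particle (symbols starting with Prosalpha or Prosbeta) and 23 of the regulatory particle (Rpn or Rpt), and were chosen by symbol, not by signal. The series holds 1 group of 2 biological replicates: whole embryos aged 0 to 24 h from a transgenic strain carrying CG31224 fused to eGFP, from which chromatin was recovered with an antibody against GFP and sequenced (ChIP-seq). Embryos without the fusion were not analysed here, and whole embryos mix all cell types, so a peak can come from any of them. Only peak lists were analysed, in dm6 coordinates, so read depth is unknown. The main list, made from both replicates, holds 3810 peaks on these chromosomes that passed a 1% irreproducible discovery rate (IDR, a measure of how well peak ranks repeat).

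The proteasome degrades proteins that carry ubiquitin chains. Its core particle is a barrel of stacked rings, with alpha subunits outside and beta subunits inside, and some of the beta subunits cut proteins. The regulatory particle caps the barrel. Its base, a ring of Rpt ATPases with some Rpn subunits, unfolds the substrate, and its lid of further Rpn subunits removes the ubiquitin. In animals, genes for these subunits are known to be expressed in most cells and to be induced together when the proteasome is inhibited. Drosophila also carries duplicate subunit genes, several of them known for expression in the testis, whose symbols add T or R to the subunit number.

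The share of proteasome genes that were bound was close to that of all protein-coding genes, and somewhat below it at most settings. A gene was called bound where a peak summit of the main list lay within 500 bp of any of its transcription start sites (TSSs). By this rule 6 of the 48 members were bound (12.5%), against 15.5% of all protein-coding genes. With a limit of 250 bp the shares were 12.5% and 12.4%, and with 1000 bp 12.5% and 18.2%. With any base of the peak within 500 bp they were 12.5% and 16.5%. The bound members were Rpn3, Rpn5, Rpn6, Rpn11, Rpn13 and Prosalpha3. They fell unevenly over the particle: 5 of 23 regulatory particle genes (21.7%) and 1 of 25 core particle genes (4%) were bound. The bound regulatory genes were all Rpn genes. Of the 8 lid genes without T or R in their symbols 4 were bound, as was 1 of the 4 such base genes that are not ATPases, and none of the 6 Rpt ATPase genes was. None of the 16 genes with T or R in their symbols was bound, against 6 of the 32 others (18.8%). These classes are small, and the differences between them were not tested.

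**Figure D1:**
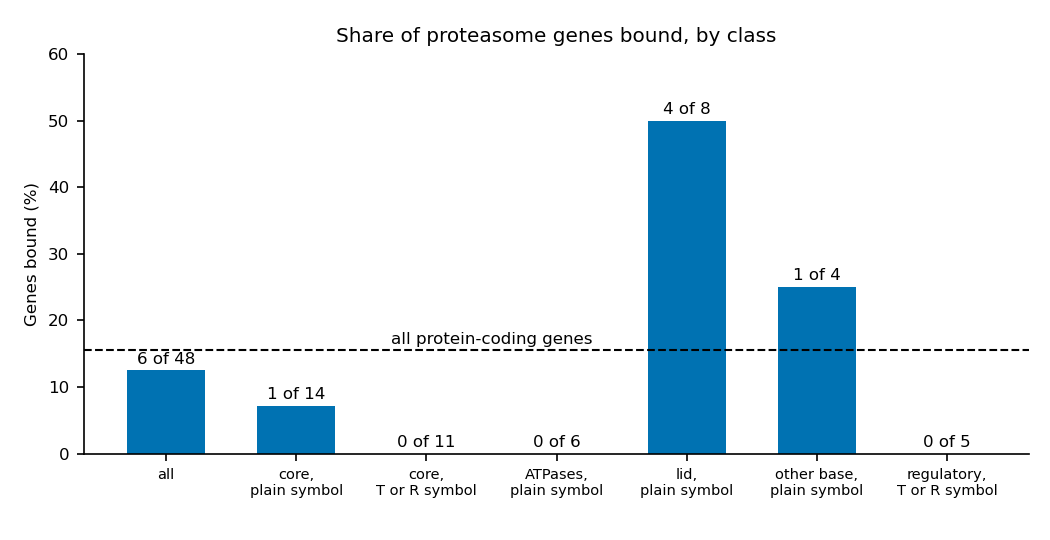
Share of proteasome genes bound in the main list (vertical axis, % of genes in the class), by class (horizontal axis), with the number bound above each bar. The dashed line is the share of all protein-coding genes, 15.5%. The lid stands highest with 4 bound genes of 8, while no ATPase gene and no gene with T or R in its symbol was bound.

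The count ran from 4 to 6 over the thresholded lists, and the members bound differed between them. The conservative list, a second series-level list of 3692 peaks, also gave 6 bound members (15.3% of all protein-coding genes were bound there). The list of replicate 1 alone gave 4 (10.5% of all genes) and that of replicate 2 alone gave 5 (12.3% of all genes). Rpn3, Rpn5 and Rpn13 were bound in both replicates. Prosalpha3 was bound in replicate 1 only, Rpn6 and Prosbeta2 in replicate 2 only, and Rpn11 in neither. Over all these lists 7 members were bound in at least 1.

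The lid genes held the strongest and the weakest peaks of the group. Values below are the authors' own signal value per peak, a score of unstated scale that was lower in each replicate's list than in the list of both at every bound member. Rpn3 (FBgn0261396), a lid subunit, had a signal value of 161, with 76.3 in replicate 1 and 86.2 in replicate 2. Its peak, chr2L:19051607-19051942, ranked 833 of 3810, and the summit lay 15 bp upstream of the TSS. It was the only member whose bound call held under every setting tried. Rpn5 (FBgn0028690), also a lid subunit, had 103 in the main list, 52.9 in replicate 1 and 43.9 in replicate 2. Its peak, chr3R:5789097-5789432, ranked 1612, and its summit lay 228 bp upstream of Rpn5 within an intron of Hat1, which encodes a histone acetyltransferase. In both replicates Rpn3 stood above Rpn5. Rpn11 (FBgn0028694) encodes the lid's deubiquitinase, the enzyme that cuts ubiquitin off the substrate. Its signal value was 52.2, rank 3455, at chr2L:5059722-5060057, with the summit 100 bp upstream of the TSS. The strongest ranked summit within reach had 30.0 in replicate 1 and 19.9 in replicate 2, and neither passed the threshold. The call at Rpn11 therefore rests on the main list alone. The deposited IDR score, which must reach 830 to pass, was 934 in one ranked list of both replicates and 640 in the other. The first is taken here as the ranking behind the main list, because all 3810 main-list peaks pass the score in it and 3236 do in the second, which is likewise matched to the conservative list; no file header states this.

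Prosbeta2 (FBgn0023174), the trypsin-like active subunit of the inner ring, was bound or not depending on the list. Its peak, chr3L:14999652-14999987, had a signal value of 88.4, above those of Prosalpha3, Rpn13 and Rpn11, and ranked 1926 of 3692 in the conservative list. The main list lacked it. In the ranking behind the main list the same peak had an IDR score of 462, and in the ranking behind the conservative list 1000. Replicate 2 gave 52.3, which passed, and replicate 1 gave 41.4 with an IDR score of 40, which did not. The summit lay 131 bp upstream of Prosbeta2 and 154 bp upstream of mRpL39, a mitochondrial ribosomal protein gene that starts on the other strand.

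The DNA under these summits was rich in A and T. The stretches below show the bases around the summits at Rpn3, Rpn5, Rpn11 and Prosbeta2, where the results above turn on single peaks; they are from the RefSeq copy of the dm6 assembly, read 5′ to 3′ on the strand of the proteasome gene, and cover up to 100 bp to each side of the summit without annotated exons. The summit is the base that follows the first 100 bases of each. Capitals mark matches to the elements searched, which here are CGATA, the shorter core within an element described further on, and the letters TATAAA of a known core promoter box, on either strand. The Rpn3 stretch is chr2L:19051675-19051789 (plus strand), the Rpn5 stretch chr3R:5789165-5789328 (plus), the Rpn11 stretch chr2L:5059791-5059990 (minus) and the Prosbeta2 stretch chr3L:14999720-14999920 (plus).
Rpn3: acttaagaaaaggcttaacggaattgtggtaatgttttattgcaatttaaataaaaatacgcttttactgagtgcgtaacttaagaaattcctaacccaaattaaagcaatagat
Rpn5: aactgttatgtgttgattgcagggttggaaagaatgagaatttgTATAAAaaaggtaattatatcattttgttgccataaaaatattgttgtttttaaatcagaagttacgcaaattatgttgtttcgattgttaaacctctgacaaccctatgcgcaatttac
Rpn11: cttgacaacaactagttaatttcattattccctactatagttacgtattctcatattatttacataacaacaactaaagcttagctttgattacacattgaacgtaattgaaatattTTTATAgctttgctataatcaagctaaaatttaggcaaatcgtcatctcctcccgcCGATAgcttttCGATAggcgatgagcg
Prosbeta2: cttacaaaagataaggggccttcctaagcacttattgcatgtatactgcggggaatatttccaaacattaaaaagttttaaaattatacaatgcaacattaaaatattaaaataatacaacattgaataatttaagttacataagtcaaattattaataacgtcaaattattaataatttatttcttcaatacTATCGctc

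These stretches held between 24.4% and 33% G and C. In full windows of 100 bp to each side, the 6 summits of bound members had a median of 32.1% G and C. Over the 1725 main-list summits within reach of a protein-coding TSS the median was 35.3%, with quartiles at 30.8% and 42.8%, and 5 of the 6 windows of bound members lay below that median. The windows ran from 28.9% at Rpn3 to 41.3% at Prosalpha3. At Rpn11, CGATA occurred at 27, 16 and 2 bases upstream of the start site, the last one spanning it and so lying partly outside the stretch shown.

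The other bound regulatory genes lay on arm 2R. Rpn6 (FBgn0028689), a lid subunit, had a peak at chr2R:14752249-14752584 with a signal value of 91.4 and rank 1856. Replicate 2 gave 64.8, which passed, and replicate 1 gave 30.4, which did not. This was the widest gap between replicates among bound members, a log2 ratio of replicate 1 to replicate 2 of -1.09. Over 2146 bound protein-coding genes with a ranked summit in both replicates that ratio had a median of -0.17, with an SD of 0.52. The Rpn6 summit lay 146 bp upstream of the nearer of its annotated TSSs, within an intron of its longest transcript. Rpn13 (FBgn0033886), a base subunit that binds ubiquitin chains, had 82.1 in the main list, 45.9 in replicate 1 and 38.3 in replicate 2. Its peak, chr2R:13960222-13960557, ranked 2116, and its summit lay in the annotated 5' UTR, 14 bp downstream of the nearest TSS. It was the only bound member whose main-list summit lay downstream of the nearest TSS; replicate 1 placed the summit 48 bp upstream and replicate 2 at the same base as the main list.

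In the core particle Prosalpha3 (FBgn0261394), an outer ring subunit, was the only gene bound in the main list. Its peak, chr2R:20994668-20995003, had a signal value of 85.2 and rank 2029, with the summit 64 bp upstream of the TSS. Replicate 1 gave 45.7, which passed. Replicate 2 gave 41.1 with an IDR score of 759, short of the threshold. The replicates thus differed little in signal value here, and the threshold fell between their scores.

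Peaks at the bound members were of ordinary strength for a promoter. The median signal value over the 6 was 88.3, against 104 over all 2168 bound protein-coding genes, whose quartiles were 71.9 and 173. Rpn3 alone came near the upper quartile, and Rpn11 lay below the lower one. All 7 peaks described, Prosbeta2 included, were 336 bp wide. Summits lay upstream of the nearest TSS at 5 of 6 bound members (83.3%), as at 86.5% of all bound protein-coding genes. The median position was -82 bp from the TSS, where negative is upstream, against -133.5 bp for all bound protein-coding genes.

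**Figure D2:**
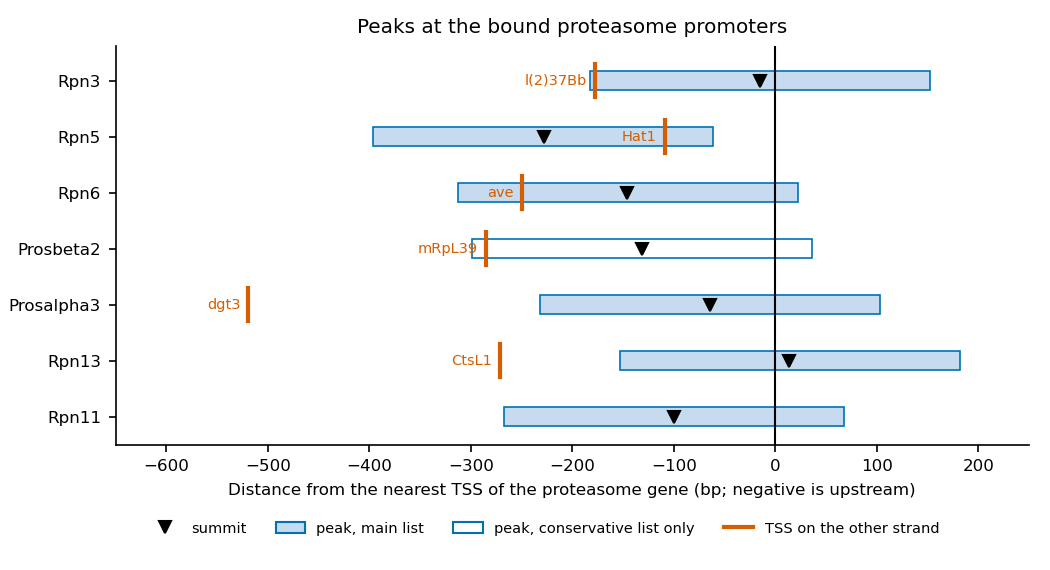
Peaks at the bound proteasome promoters, placed by distance from the nearest TSS of the proteasome gene (horizontal axis, bp, negative is upstream) and ordered by signal value, Rpn3 highest. Boxes are peaks, triangles summits, and orange bars the TSS of the nearest other protein-coding gene within 500 bp of the summit. At 6 of the 7 promoters such a TSS stands on the other strand, and the Rpn5 summit lies beyond the Hat1 TSS.

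Most of these peaks lay within reach of a second gene. A TSS of another protein-coding gene, always on the opposite strand, lay within 500 bp of the summit at 5 of the 6 bound members, and at Prosbeta2. Rpn11 was the exception. Such neighbours are common at bound genes in general. Measured between start sites, an upstream TSS on the other strand lay within 500 bp at 4 of the 6 bound members (66.7%). Among all bound protein-coding genes it did so at 53.7%. The neighbours were l(2)37Bb at Rpn3 (163 bp from the summit), Hat1 at Rpn5 (119 bp), ave, which acts in Ras signalling, at Rpn6 (104 bp), CtsL1, a cathepsin, at Rpn13 (285 bp) and dgt3, an augmin subunit that works on the mitotic spindle, at Prosalpha3 (455 bp). For Rpn5 and Rpn6 the neighbour's TSS was nearer to the summit than that of the proteasome gene. With each summit given only to the protein-coding gene of the nearest TSS, 4 members remained bound, where 11.2% of all protein-coding genes were. A peak between such start sites, or just inside a gene of the pair as at Rpn5 and Rpn13, cannot be assigned to either gene from these data.

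Proteasome genes often share their upstream region with another gene, whether bound or not. An upstream TSS of a protein-coding gene on the other strand lay within 500 bp of a TSS at 24 of 48 members (50%), against 27.3% of all protein-coding genes. Among the 32 genes without T or R in their symbols there were 21 (65.6%), and among the 16 with it 3 (18.8%). Such paired promoters are bound more often in general: 30.5% of all 3815 paired genes were bound, and 9.88% of the 10153 unpaired ones. Among members 4 of 24 paired genes (16.7%) and 2 of 24 unpaired genes (8.33%) were bound. Among the members without T or R the shares were alike, 4 of 21 paired genes (19%) and 2 of 11 unpaired genes (18.2%). Of these 2, Prosalpha3 is just past the limit, with dgt3 starting 519 bp upstream on the other strand. The likeness of these shares therefore depends on the 500 bp limit. The paired members' share was thus below that of paired genes in general, on few genes and with no test. The unbound paired members include Rpt5, whose TSS lies 42 bp from that of RanBP3, Rpt4 (58 bp from mldr), Rpt2 (81 bp from CG13599) and Prosalpha4 (90 bp from kat80).

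By distance to the nearest TSS, no member lay close to the 500 bp limit. The bound summit farthest from its nearest TSS was that of Rpn5, 228 bp away. The closest main-list summit to an unbound member lay 1129 bp downstream of the TSS of Prosbeta6, an inner ring subunit, and the next 1365 bp downstream of Prosbeta2R2. Over all members the nearest main-list summit was 9515 bp away at the median, against 9247 bp over 13945 protein-coding genes on chromosomes with a summit.

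The longer ranked lists gave weak peaks at most unbound members. The ranked list behind the main list holds 98900 peaks, and a summit of it lay within 500 bp of a TSS at 26 of the 42 unbound members (61.9%), against 64.5% of all unbound protein-coding genes. The median signal value of the strongest such summit was 21.6, against 24.6. In the ranked list of replicate 1, 18 of the 42 had a summit (42.9%, against 49.1% of all unbound protein-coding genes). In that of replicate 2 also 18 had one (42.9%, against 49.5%).

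After Prosbeta2, the unbound members with the highest values were Prosbeta1 (43.0, the caspase-like active subunit), Rpn12 (40.0, lid), Prosalpha2 and Prosalpha4 (39.7 each, outer ring), Prosalpha7 (35.6, outer ring) and Rpn2 (35.0, a scaffold of the base). All were below Rpn11, the weakest bound member, and none reached the IDR score of 830. Their scores ran from 45 at Prosalpha4 to 483 at Prosbeta1 in the ranking matched to the main list, and from 125 at Prosbeta1 to 758 at Rpn2 in the other, where Prosalpha4 had 506. In the replicates Prosbeta1 had 25.9 and 14.0, Prosalpha2 26.9 and 18.1, and Rpn12 18.2 and 21.6. Rpn2 had 30.8 in replicate 1 and 21.3 in replicate 2, each slightly above Rpn11 in the same replicate, but its summits lay at different places, 148 and 357 bp upstream. In the list of both replicates Rpn11 was higher (52.2 and 35.0), while in the second ranking the IDR score of Rpn2, 758, was above the 640 of Rpn11.

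No ATPase gene reached the 52.2 of Rpn11, the weakest bound member, in either ranked list of both replicates. Of the 6 without T or R in their symbols, Rpt6 had the highest value in the ranked list of both replicates (27.6), followed by Rpt3 (18.1), Rpt4 (17.0) and Rpt1 (5.97), while Rpt2 and Rpt5 had no summit within reach there. Rpt6 lay above the median of 24.6 over unbound protein-coding genes with a summit, and Rpt3, Rpt4 and Rpt1 lay below it. In replicate 2 Rpt3 had 23.1, above the 19.9 of Rpn11 there. Rpt5 had a summit in replicate 2, at 9.81, and in the other ranked list of both replicates Rpt5 had 18.8 and Rpt2 had 17.0. The remaining lid and base genes, Rpn1 (19.7), Rpn8 (14.0), Rpn9 (21.5) and Rpn10 (9.996), lay in the same range. In the core particle Prosbeta5, the chymotrypsin-like active subunit, had 23.2, Prosalpha5 had 20.2 and Prosbeta4 had 3.55. Prosbeta7 had a summit only in the ranked list of replicate 1, and Prosbeta3 had one in replicate 2 (11.4) and in the other ranked list of both replicates (14.1). No summit lay within reach in any of the 4 ranked lists at 10 members. Of these, 4 carry neither T nor R: Prosalpha1, Prosalpha6, Prosbeta6 and Rpn7. The absence of a ranked summit says only that none was listed, since depth is unknown.

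**Figure D3:**
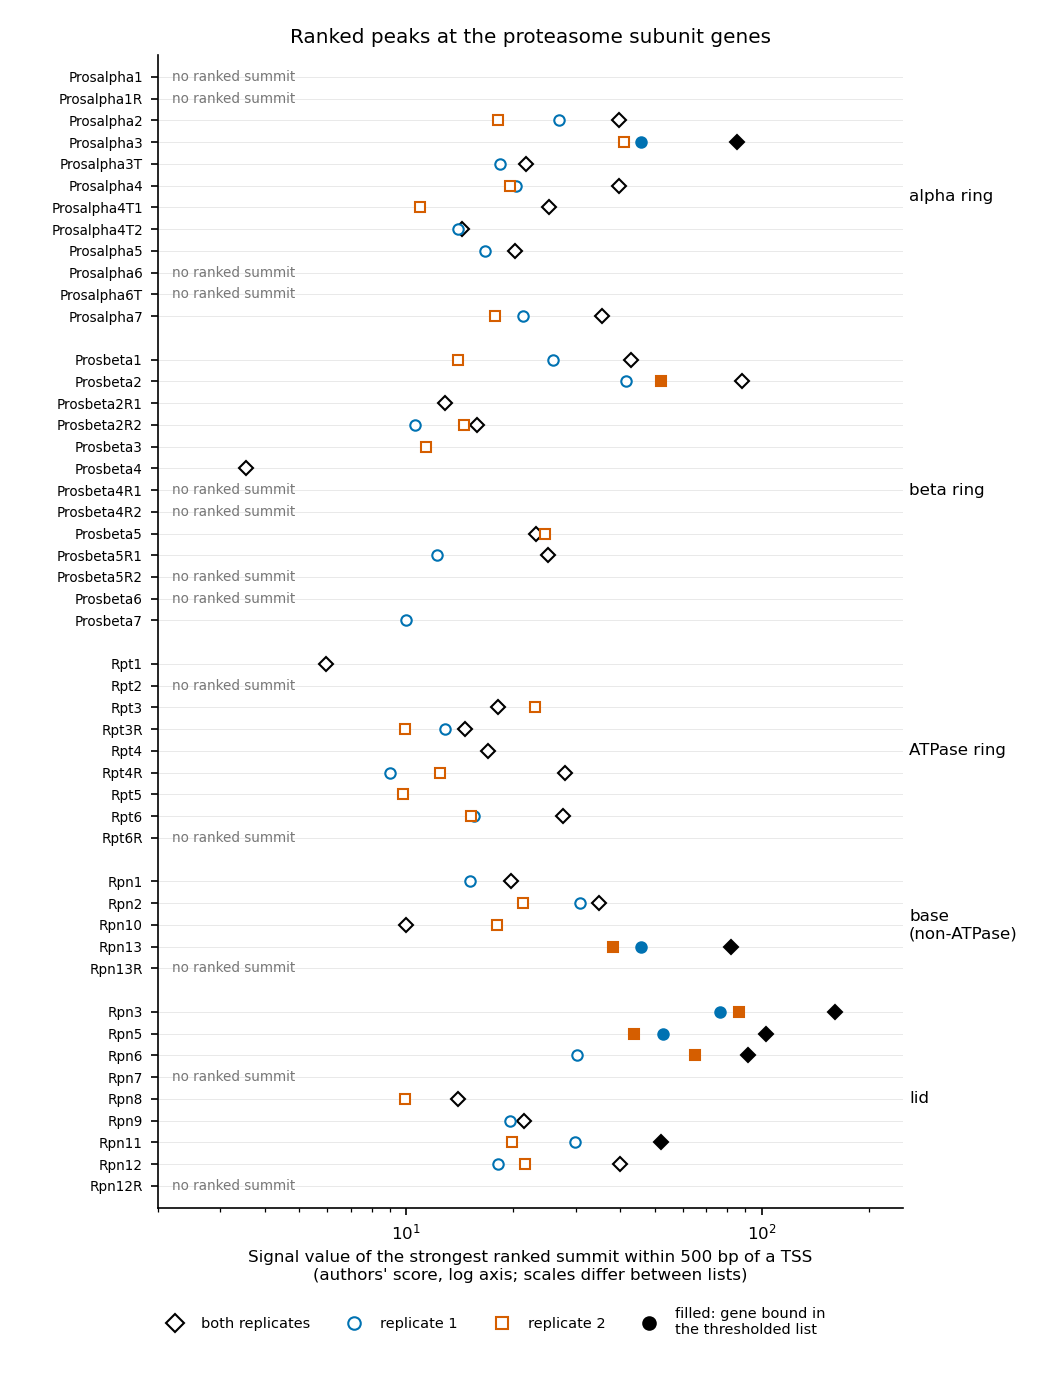
Signal value of the strongest ranked summit within 500 bp of a TSS (horizontal axis, authors' score, log axis) for each of the 48 members, grouped by place in the proteasome. Diamonds are the list of both replicates that is matched to the main list, circles replicate 1 and squares replicate 2; a filled symbol means that the gene was bound in the corresponding thresholded list. Bound members reach 52.2 to 161 in the list of both replicates, and Prosbeta2, at 88.4, is the only unbound gene in that range. Genes marked as having no ranked summit lack one in the 3 lists plotted.

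At the 16 duplicate genes with T or R in their symbols no peak came near the bound range. Of these, 8 had a ranked summit in the list of both replicates, with values from 12.9 at Prosbeta2R1 to 28.0 at Rpt4R and a median of 18.8. The other 8 had none in the ranked list of either replicate, and of these Rpt6R (17.6) and Prosbeta4R1 (7.59) had one in the other ranked list of both replicates. For comparison, 18 of the 26 unbound members without T or R had a ranked summit, with a median of 22.4. Prosbeta2R2 and Prosbeta2R1, duplicates of Prosbeta2, had 15.8 and 12.9, and Prosalpha3T, the duplicate of Prosalpha3, had 21.7. Rpn12R and Rpn13R, the duplicates among the Rpn genes, had no ranked summit.

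Promoters of proteasome genes were searched for 9 short elements, from 250 bp before to 50 bp after the annotated 5' end of the gene, on both strands. At Rpn6 this window does not cover the peak, which lies inside the gene, nearer to another annotated TSS. TATCGATA, the DNA replication-related element (DRE) known in Drosophila promoters and bound by the factor Dref, occurred in 12 of 48 members (25%), against 9.36% of all protein-coding genes. All 12 were among the 32 genes without T or R (37.5%), and the 16 with T or R had none. The bound members with it were Prosalpha3, Rpn3 and Rpn13. Of the 12 members with the element 3 were bound (25%), and of the 36 without it 3 (8.33%). Over all protein-coding genes the corresponding shares were 23.1% and 14.7%. The 36 members without it include all 16 genes with T or R, none of them bound. Of the 32 genes without T or R, with or without the element, 18.8% were bound. At Prosalpha3 the DRE began 95 bases upstream of the TSS, at Rpn3 197 bases and at Rpn13 217 bases upstream. At Prosbeta2 it began 10 bases upstream. Within 100 bp to each side of the summit, 2 of the 6 bound members had a DRE, Prosalpha3 and Rpn3. Of 1725 main-list summits within reach of a protein-coding TSS 6.2% had one. At Rpn3 this match is not the one 197 bases upstream, and the stretch shown above, which leaves out exons, does not hold it. The shorter letters CGATA, which every DRE match contains, occurred in 35 members (72.9%), against 47.3% of all genes.

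Of the other elements, some were more and some less common than in all genes. TGACNNNGC, the antioxidant response element through which the factor CncC is known to act on proteasome genes in flies, occurred in 6 members (12.5%), against 8.62% of all genes. None of the 6, Prosalpha2, Prosbeta3, Prosbeta4R2, Rpn1, Rpn7 and Rpt6, was bound, and of all 1204 protein-coding genes with it 172 were. In a window of 500 bp centred on the TSS TGACNNNGC was found in 10 members (20.8%, against 14.2% of all genes). Of these 10, 2 were bound, Rpn5 and Rpn11, and of all 1983 genes with it there 281 were. GGTCACAC, the core of a promoter element known as motif 1, occurred in 5 members (10.4%, against 7.69%), all unbound. Of all 1074 genes with this core 230 were bound. With so few members these counts do not separate them from other genes, and no test was run. TATAAA occurred in 18 members (37.5%, against 45.8%), GAGAG in 9 (18.8%, against 29.7%) and CAGCTG in 2 (4.17%, against 17.6%). CACGTG, in 4.2% of all genes, and GGTGGCAAA, the element through which Rpn4 controls proteasome genes in yeast, in 0.48% of all genes, were in no member's window. The members' promoters had a median of 33.2% G and C, against 38% over all protein-coding genes, and the part of that composition in these shares was not tested.

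**Figure D4:**
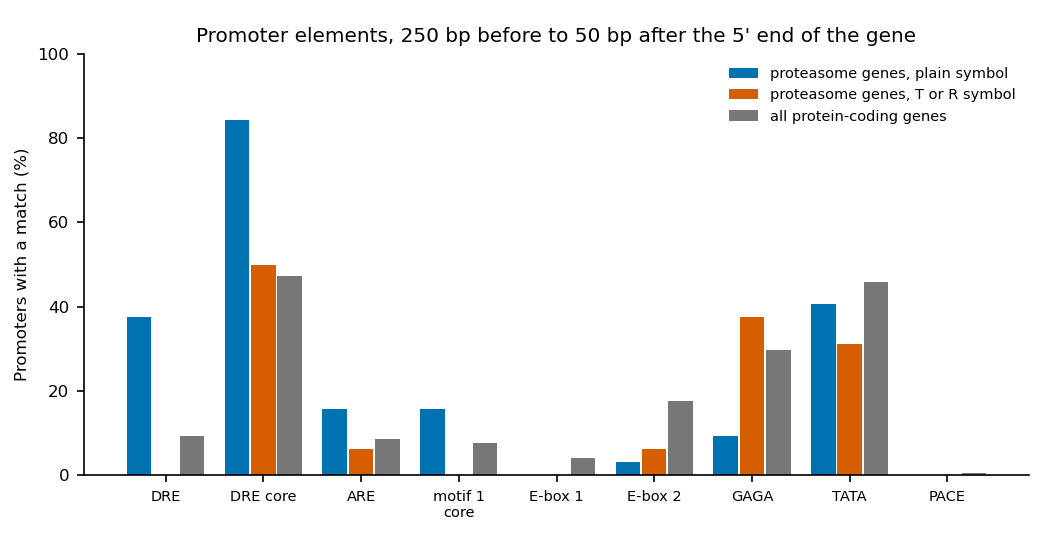
Share of promoters with a match to each of 9 elements (vertical axis, %), for the 32 proteasome genes without T or R in their symbols, the 16 with it, and all protein-coding genes. DRE core stands for CGATA, E-box 1 for CACGTG and E-box 2 for CAGCTG. The DRE was found in 37.5%, none and 9.36% of these groups.

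Genes that work with the proteasome were also looked up. Of 32 such genes 6 were bound (18.8%), beside the 15.5% of all protein-coding genes. Of the 8 activators, assembly factors and regulators of proteasome genes 3 were bound. Pomp, which helps to assemble the core particle, had 164, with 66.0 in replicate 1 and 90.5 in replicate 2. The gene cnc, which encodes CncC, had 101, with 46.96 in replicate 1 and 56.6 in replicate 2, at 322 bp downstream of a TSS. Keap1, which encodes the inhibitor of CncC, had 69.8 and was bound in neither replicate's list. The activator REG and the regulator PI31 were not bound in the main list. Of the 11 ubiquitin and ubiquitin-handling genes 2 were bound: Hrd3, which acts in degradation of proteins from the endoplasmic reticulum, had 262, with 111 and 151, and RpS27A, which encodes ubiquitin fused to a ribosomal protein, had 110, with 56.2 and 47.03. Uba1, the ubiquitin-activating enzyme, and TER94, the segregase that extracts ubiquitinated proteins, were not. None of the 4 shuttle factors and deubiquitinases was bound (Rad23, Ubqn, Uch-L5 and Usp14).

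The COP9 signalosome removes Nedd8 from cullin ligases, and its subunits resemble those of the lid. Of its 9 genes 1 was bound, alien, which encodes subunit CSN2, with a signal value of 144 in the main list, 71.2 in replicate 1 and 70.6 in replicate 2. The difference from the 4 bound of 8 lid genes was not tested.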

How the data were processed

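Peak lists were deposited for anti-GFP ChIP-seq of 2 biological replicates in 1 group. Per the labels, chromatin was sonicated to 200 to 800 bp. One label field gives the antibody as CG31224, the tagged protein, and the description gives anti-GFP, which is used here. The 8 lists are in dm6 and derive from alignments of the replicates and of a control, per the text files deposited with them. No source used here names the aligner or peak caller. Each peak's signal value and IDR score are the authors' deposited scores, used only to rank and describe peaks; every thresholded list has an IDR score of 830 or more, equal to an IDR of 1% or less. Ranked lists were matched to thresholded lists by identical peaks, which is an inference. The 4 columns in the series-level ranked lists that hold values of a ranking's inputs were not used, since no header names them. Read counts were not analysed, so depth and its precision are unknown.

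Only peaks on the 7 chromosomes and arms were used, which left out 5 of the main list on unplaced scaffolds. TSSs are the 5' ends of all Ensembl transcripts (BDGP6.54), and sequence is the RefSeq copy of that assembly; all peaks lie within its chromosome lengths. Of 32 related symbols 32 matched by symbol or RefSeq synonym. Every bound member, the unbound ones by their strongest ranked summit, bound related genes and neighbours in reach were named; other unbound related genes, and Prosbeta2, whose sequence is shown, were picked after their values were seen. No tests were run: a single group allows none, and the members and lists were chosen with earlier results of these data known. Pairing of promoters was added after the data were seen. The bound call was checked with planted summits. Alternatives were other distances, lists, TSS sets and assignments. Python 3.11.15 was used.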

Additional observations from a re-analysis of the deposited data

How the results depend on the processing

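The count of 6 bound members was 3 among peaks above the median signal value and from 4 to 6 under the other alternatives, with 4 to 5 in the lists that leave out a replicate. The share of all protein-coding genes moved with the setting too. It was 9.23% above the median signal, 10.5% without replicate 2, 12.3% without replicate 1 and 11.2% by nearest gene, beside 15.5% in the main list. For the core particle, 1 bound gene became 2 in the conservative list and 0 above the median signal; leaving out a replicate gave 1 each time. For the regulatory particle, 5 became 3 above the median signal, 3 with each summit given to its nearest gene, and 3 to 4 without a replicate. The T and R genes had 0 bound under all 9 alternatives. Paired members had 4 bound, 2 with each summit given to its nearest gene, and 3 to 5 without a replicate. At a gap of 300 bp 4 of 17 were bound (23.5%), against 29.9% of all genes paired at that gap. At a gap of 1000 bp 5 of 26 were bound (19.2%), against 27.4% of all genes paired at that gap. Related genes had 5 to 6 bound throughout. Summits lay upstream at 5 of the 6 bound members by the nearest TSS, and at 4 with a single TSS per gene. Ranked summits at unbound members fell from 26 to 18 at 250 bp (42.9%, against 46.2% of all unbound protein-coding genes). They also fell to 18 without replicate 2 (against 49.1% of all unbound genes) and without replicate 1 (against 49.5%). In a window of 500 bp centred on the TSS, the counts rose to 10 for TGACNNNGC (20.8%, against 14.2% of all genes) and 2 for CACGTG (4.17%, against 6.96%). They rose to 5 for CAGCTG (10.4%, against 26.1%) and 18 for GAGAG (37.5%, against 43.7%). The DRE count stayed at 12 (25%, against 9.89%). No paired analysis was possible because the series has 1 group. Depth limits what the lists can show, and it is unknown.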
